A study of Homo sapiens with 18 samples.

Results

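The HOX genes encode homeodomain transcription factors that lie in 4 clusters, HOXA, HOXB, HOXC and HOXD. The members are entries of the deposited expression table whose symbol is HOX followed by the letter of a cluster and a position number. There are 38 of them described here among 23571 named genes, 10 in HOXA, 10 in HOXB, 9 in HOXC and 9 in HOXD. The cells were SW48, a human colon adenocarcinoma line, and their RNA was sequenced in 18 libraries, 3 in each of 6 groups. Cells received a negative control siRNA or an siRNA against CHD4 (siCHD4), and each of these was given alone, after an siRNA against DNMT1 (siDNMT1) or together with decitabine. Without a second agent, cells were transfected on days 1, 3 and 6 and harvested on day 8. In the siDNMT1 groups, siDNMT1 transfections on days 1, 3 and 5 preceded those with control siRNA or siCHD4 on days 7 and 8, and harvest was on day 11. In the decitabine groups, cells received 50 nM of the drug on days 1 to 3 and the siRNA on days 1 and 2, with harvest on day 5. The 6 groups are therefore control siRNA, siCHD4, control siRNA + siDNMT1, siCHD4 + siDNMT1, control siRNA + decitabine and siCHD4 + decitabine. A comparison of siCHD4 with control siRNA within one of these schedules asks what CHD4 knockdown adds in that background. In a comparison with control siRNA alone, the second agent and the schedule cannot be told apart. All libraries come from 1 cell line, and separate cultures are not named in the labels. A p-value here therefore reflects the spread among the 3 libraries within groups, estimated over all 6 groups together, which may be technical.

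HOX genes of the same position number in different clusters are paralogues, and low numbers lie at the end of a cluster that is expressed towards the head of the embryo, high numbers at the end expressed towards the tail. The gut keeps part of this positional code in adult life, and colon cells characteristically use genes from the middle and the high-numbered end of the clusters. Polycomb complexes keep HOX genes silent and trithorax-group methyltransferases keep them active. CHD4 is the ATPase of the NuRD complex, a nucleosome remodelling and histone deacetylase complex. DNMT1 copies DNA methylation to the new strand at replication, and decitabine is a cytidine analogue that traps DNA methyltransferases on DNA.

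CHD4 transcript was 62.8 ± 4.78 FPKM (mean ± SD, n = 3) with control siRNA and 31.3 ± 7.87 with siCHD4. With siDNMT1 it was 68.2 ± 5.19 and 28.4 ± 1.12, and with decitabine 76.2 ± 8.17 and 54.9 ± 2.06. FPKM are fragments per kilobase of transcript and per unit of sequencing depth, a level that already allows for transcript length. DNMT1 transcript was 12.3 ± 1.15 and 12.1 ± 0.968 FPKM in the siDNMT1 groups, and group means lay between 42.5 and 51.7 elsewhere. A pair of libraries stood apart. In control siRNA + decitabine replicate 0 the worth of 1 fragment was 2.04 higher on the log2 scale than in control siRNA replicate 0, against -0.74 to 0.16 in the other libraries, so this library was the shallowest. In siCHD4 replicate 2 the CHD4 level was the lowest of its group (23.2 FPKM, against 39.0 and 31.8), and 23 of the 29 HOX genes that could be tested had their highest value of that group there. For the 3 siCHD4 comparisons, the counts of called HOX genes and of called genes of other lists are given with and without both. All 11 colon epithelium markers are in the table and 9 reached 1 FPKM in a library, while CDX1 and LGALS4 did not. The summed level of these markers was 2015 to 2127 FPKM with control siRNA and 1198 to 1367 with siCHD4. With siDNMT1 the colon marker sums were 1800.0 to 1880 and 1057 to 1099, and with decitabine 1884 to 2457 and 1444 to 1503, in the same order. The fibroblast markers summed to 0.121 to 0.490 FPKM with control siRNA and to 13.0 to 15.1 with siCHD4 + siDNMT1, of which LUM was 10.0 on average. LUM, COL1A1 (from 0.126 ± 0.0883 to 2.31 ± 0.669 FPKM) and DCN (from 0.177 ± 0.141 to 1.29 ± 0.187) were called higher with siCHD4 in the siDNMT1 background. Of the other fibroblast markers COL3A1 was 0 in all 18 libraries, and COL1A2, PDGFRA and PDGFRB stayed at or below 0.261 FPKM. The blood markers summed to at most 0.0908 FPKM with control siRNA and to 3.52 to 4.25 with siCHD4 + siDNMT1. Endothelial markers summed to at most 0.529 and neural and glial markers to at most 0.750 FPKM in any library. Of the 9 colon markers tested siCHD4 raised 4 and lowered 2 alone, beside 9.58% of all tested genes called higher and 9.71% lower. It raised 6 and lowered 2 with siDNMT1, beside 24.8% and 24.6%, and raised 1 and lowered 2 with decitabine, beside 3.26% and 1.31%. The lowered pair was KRT8 and KRT18, which make up most of the summed level and carry its fall. With siDNMT1 they went from 681 ± 36.3 to 339.8 ± 10.2 and from 828 ± 10.6 to 274 ± 8.14 FPKM, while CDH1, KRT19, CDX2, CDH17, VIL1 and KRT20 were called higher (median log2 change of the 9 markers 0.82). Of the 3 fibroblast and 2 blood markers tested, siCHD4 raised 0 alone, all of them with siDNMT1 and 1, a fibroblast marker, with decitabine, and it lowered none (limma). Without both libraries that stand apart, 3 colon markers were called higher alone, and 4 colon, 2 fibroblast and 1 blood marker with decitabine. No endothelial, neural or glial marker was tested. The part of these markers in the HOX results was not tested.

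In the GRCh37 annotation (GENCODE), which has the hg19 coordinates of the files, the described HOXA genes span chr7:27139973-27239710, HOXB chr17:46605888-46806112, HOXC chr12:54332615-54449814 and HOXD chr2:176957449-177055635. The genes are packed closely. The spans of 22 of the 38 members overlap another HOX gene on the same strand, and 24 overlap a gene on the other strand. HOXA3 runs across HOXA4, HOXA5 and HOXA6, HOXB3 across HOXB4, HOXB5 and HOXB6, HOXB7 across HOXB8 and HOXB9, HOXC6 across HOXC8 and HOXC9 and into HOXC4, HOXA9 into HOXA10, and HOXD3 across HOXD4. HOXC11 overlaps the antisense RNA gene HOTAIR. Whether the counting used the strand is not given in the sources used here, so the values of these overlapping genes are uncertain to that extent.

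Since DNMT1 copies methylation of CG dinucleotides and decitabine traps DNA methyltransferases, promoters of members called with siCHD4 are shown with their CG content. RefSeq promoter windows (build GRCh38.p14, 250 bases before to 50 after a gene's start) were found for 20 of the 38 members, in 27 entries. HOXA5, HOXB2 to HOXB9, HOXB13, HOXC6, HOXC8 to HOXC13 and HOXD9 had no entry. The motif counted was CG, which reads the same on both strands and cannot overlap itself. At least 1 CG is present in 96.0% of all 35116 promoters of this length and in 96.3% of the HOX entries. The HOX entries held 0 to 44 CG with a median of 22.0, against a median of 14.0 in all promoters, and 20 of the 27 held at least 15, against 48.9% of all promoters. The windows printed are those of every member with a single entry that was called in a siCHD4 comparison, HOXC4, HOXA7, HOXA9, HOXA11 and HOXD3, called higher in the siDNMT1 background, and HOXD8, called lower in the decitabine background. That of HOXA13, which had the most CG and was called in none of the 3 siCHD4 comparisons, is added. HOXA3 and HOXA10, also called, have several entries and are not printed. Those of HOXA3 hold 0 to 29 CG and those of HOXA10 hold 21 and 25. The printed windows lie at chr12:54016638-54016937, chr7:27156626-27156925, chr7:27165488-27165787, chr7:27185183-27185482, chr2:176157057-176157356, chr2:176129455-176129754 and chr7:27200042-27200341, the HOXA windows on the minus strand and the others on the plus strand. The HOXC4 window is also the entry of HOXC5. Each is written 5′ to 3′ on the strand of the gene with every CG in capitals. They hold 15, 31, 22, 13, 25, 34 and 44 CG, in that order, and 48.9%, 20.7%, 37.7%, 51.7%, 32.0%, 15.6% and 4.19% of all promoters hold as many or more. The count describes sequence, not methylation, which was not measured here.
HOXC4: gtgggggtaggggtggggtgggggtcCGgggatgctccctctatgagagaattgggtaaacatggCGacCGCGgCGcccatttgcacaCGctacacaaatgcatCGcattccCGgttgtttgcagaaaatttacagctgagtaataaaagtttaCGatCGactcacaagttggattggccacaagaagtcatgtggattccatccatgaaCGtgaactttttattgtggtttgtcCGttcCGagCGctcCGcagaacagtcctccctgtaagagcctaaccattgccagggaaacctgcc
HOXA7: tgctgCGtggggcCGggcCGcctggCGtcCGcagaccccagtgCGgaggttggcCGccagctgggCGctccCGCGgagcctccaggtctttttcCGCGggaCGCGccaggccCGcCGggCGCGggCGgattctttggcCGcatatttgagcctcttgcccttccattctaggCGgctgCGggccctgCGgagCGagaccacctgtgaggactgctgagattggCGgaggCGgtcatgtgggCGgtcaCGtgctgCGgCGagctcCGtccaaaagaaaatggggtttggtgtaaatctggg
HOXA9: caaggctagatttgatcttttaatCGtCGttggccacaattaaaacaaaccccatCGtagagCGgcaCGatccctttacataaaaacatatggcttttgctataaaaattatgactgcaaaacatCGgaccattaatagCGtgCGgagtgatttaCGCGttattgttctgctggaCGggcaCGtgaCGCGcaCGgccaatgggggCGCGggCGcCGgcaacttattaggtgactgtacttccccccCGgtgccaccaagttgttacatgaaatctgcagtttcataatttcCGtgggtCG
HOXA11: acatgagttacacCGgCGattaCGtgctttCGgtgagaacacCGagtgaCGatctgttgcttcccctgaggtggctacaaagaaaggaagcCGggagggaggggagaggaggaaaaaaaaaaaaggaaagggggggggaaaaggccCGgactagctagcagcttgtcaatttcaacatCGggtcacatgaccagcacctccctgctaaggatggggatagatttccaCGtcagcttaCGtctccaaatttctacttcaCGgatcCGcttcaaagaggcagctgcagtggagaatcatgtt
HOXD3: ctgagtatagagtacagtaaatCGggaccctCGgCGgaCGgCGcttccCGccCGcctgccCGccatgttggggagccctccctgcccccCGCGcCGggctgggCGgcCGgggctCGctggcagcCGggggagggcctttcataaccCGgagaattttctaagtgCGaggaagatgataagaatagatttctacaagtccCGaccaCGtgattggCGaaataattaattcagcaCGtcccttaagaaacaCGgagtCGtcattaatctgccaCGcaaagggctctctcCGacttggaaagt
HOXD8: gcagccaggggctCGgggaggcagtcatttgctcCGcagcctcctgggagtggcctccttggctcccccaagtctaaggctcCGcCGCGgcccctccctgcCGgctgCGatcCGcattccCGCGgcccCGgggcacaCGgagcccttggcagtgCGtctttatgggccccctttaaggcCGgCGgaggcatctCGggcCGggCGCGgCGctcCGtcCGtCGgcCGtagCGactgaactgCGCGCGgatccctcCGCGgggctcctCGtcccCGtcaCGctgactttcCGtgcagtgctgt
HOXA13: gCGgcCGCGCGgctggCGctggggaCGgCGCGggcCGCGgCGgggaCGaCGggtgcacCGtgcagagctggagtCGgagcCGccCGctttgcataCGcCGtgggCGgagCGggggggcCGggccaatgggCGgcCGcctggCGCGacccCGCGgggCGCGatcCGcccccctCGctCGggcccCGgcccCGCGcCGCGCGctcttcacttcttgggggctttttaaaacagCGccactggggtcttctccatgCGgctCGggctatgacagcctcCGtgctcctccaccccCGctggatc

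In control cells the HOXB and HOXA clusters carried most of the HOX transcript level. With control siRNA the cluster sums were 176.8 ± 5.99 FPKM for HOXB, 125.5 ± 16.6 for HOXA, 8.71 ± 1.27 for HOXD and 8.46 ± 0.678 for HOXC (mean ± SD, n = 3). Of the 38 members 3 had a control mean of at least 50 FPKM (HOXA9, HOXB7 and HOXB9), 3 lay between 10 and 50 (HOXA10, HOXB6 and HOXB8), 17 between 1 and 10, 12 below 1, and 3 were listed at 0 in all control libraries. The highest levels were thus at positions 9 and 10 in HOXA and at positions 6 to 9 in HOXB. HOXB1 was listed at 0 in all 18 libraries. In HOXD, HOXD8 stood alone at 6.13 ± 0.527 FPKM, whereas HOXD9, HOXD10, HOXD11, HOXD12 and HOXD13 did not reach 1 FPKM in any library. In HOXC the highest level was that of HOXC10, at 3.52 ± 0.209. The libraries are from bulk RNA, in which fewer cells expressing a gene and less RNA per cell cannot be told apart.

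**Figure D1:**
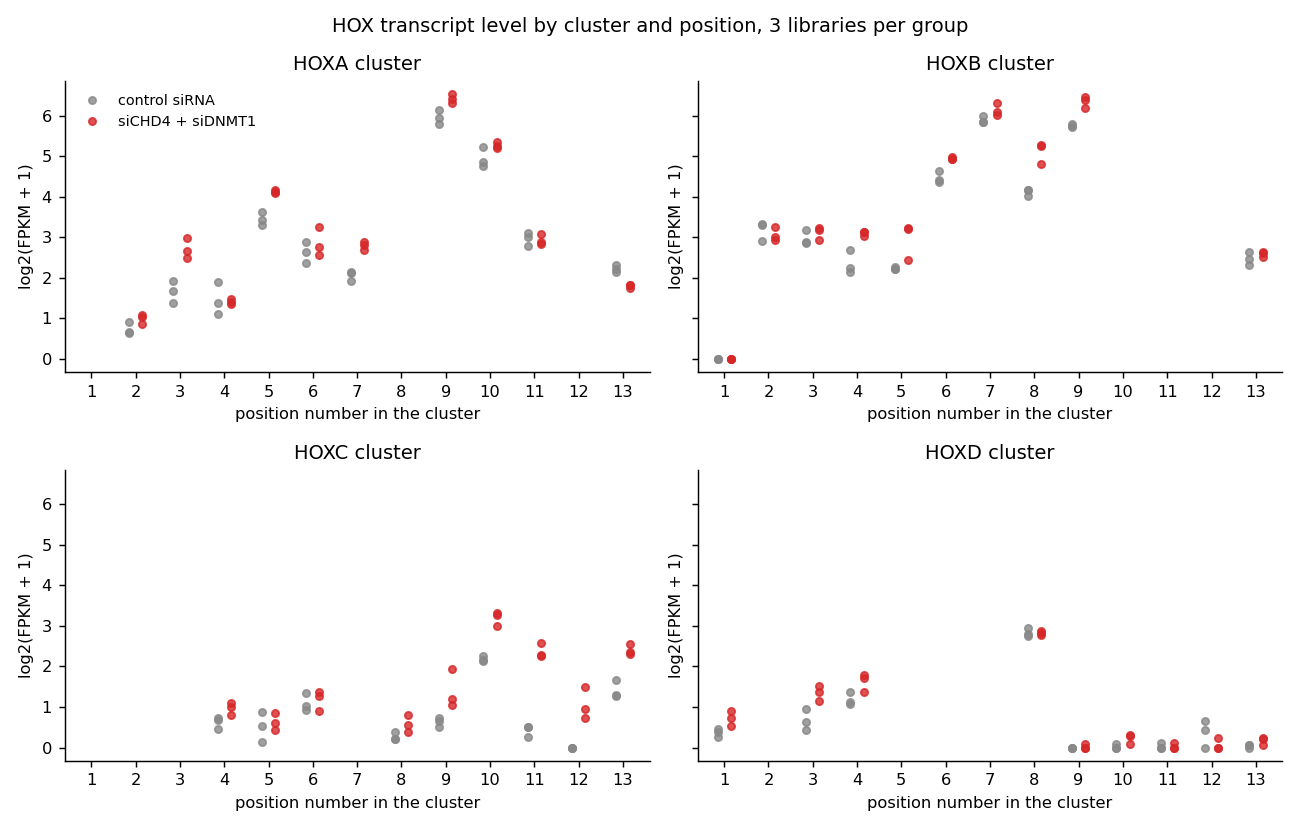
Level of each of the 38 HOX genes in log2(FPKM + 1) (y axis) against its position number (x axis), 1 panel per cluster; points are the 3 libraries of control siRNA (grey) and of siCHD4 + siDNMT1 (red). The highest points are at positions 9 and 10 of HOXA and positions 6 to 9 of HOXB, and HOXC10 to HOXC13 are higher in red than in grey.

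Tests were run on log2(FPKM + 1) with limma over the 12809 genes that reached 1 FPKM in at least 3 libraries. A gene is called higher or lower at an adjusted p (Benjamini-Hochberg over all tested genes) below 0.05. Of the 38 members 29 were tested, all 10 of HOXA, 9 of HOXB, 7 of HOXC and 3 of HOXD. HOXB1, HOXC5, HOXC8, HOXD1 and HOXD9 to HOXD13 were not. A low gene could enter the tests through the group in which it was high. HOXC12 reached 1 FPKM in 4 libraries, all with siCHD4 and a second agent, and HOXD3 in 4, the siCHD4 + siDNMT1 libraries and siCHD4 replicate 2. For HOXC4 it was 6, all but 1 of them with siCHD4. HOXC11 reached 1 FPKM in 13 libraries and HOXC9 in 10, none of them in the control siRNA group. Calls of HOXC9, HOXC11, HOXC12 and HOXD3 against the control siRNA group are a description only for that reason. Therefore the counts below describe these 29 genes and are not a sample of all members. Changes on this scale understate the fold change of low genes.

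The response to siCHD4 was read in 3 backgrounds, and the differences between them are tested gene by gene further on. Given alone, siCHD4 raised 4 of the 29 tested HOX genes, HOXB5, HOXB8, HOXB9 and HOXC10, beside 9.58% of all tested genes called higher, and lowered 1, HOXC13, beside 9.71% called lower. With siDNMT1 it raised 18, of which 6 were in HOXA, 6 in HOXB, 5 in HOXC and 1 in HOXD, beside 24.8% of all genes called higher, and lowered 0, beside 24.6% called lower (limma). At an unadjusted p below 0.05 the counts there were 21 higher and 0 lower. With decitabine it raised 2, HOXC11 and HOXC12, beside 3.26% called higher, and lowered 1, HOXD8, beside 1.31% called lower. The median log2 change over the 29 genes was 0.16 alone, 0.50 with siDNMT1 and 0.03 with decitabine, against 0.00, -0.01 and 0.01 over all tested genes. Among the 25 HOX genes with a mean of at least 1 FPKM over all libraries, which leaves out HOXA2, HOXC4, HOXC12 and HOXD3, 15 were called higher with siDNMT1, beside 23.2% of the 12085 genes with such a mean. With siDNMT1 the 18 genes were spread over the clusters, with 5 of 9 tested genes at positions 1 to 4, 5 of 9 at positions 5 to 8 and 8 of 11 at positions 9 to 13. Without both libraries that stand apart, the median for siCHD4 alone was 0.00 and 2 genes were called higher, HOXB9 and HOXC10, and 2 lower, HOXC13 not among them (adjusted p = 0.0516), beside 13.3% and 15.2% of all genes. The count with siDNMT1 was 21 without both, beside 30.2%, and ran from 16 to 20 on leaving out any 1 library. With decitabine the median without both was 0.12, and 3 genes were called higher and 1 lower, beside 6.31% and 4.47%.

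**Figure D2:**
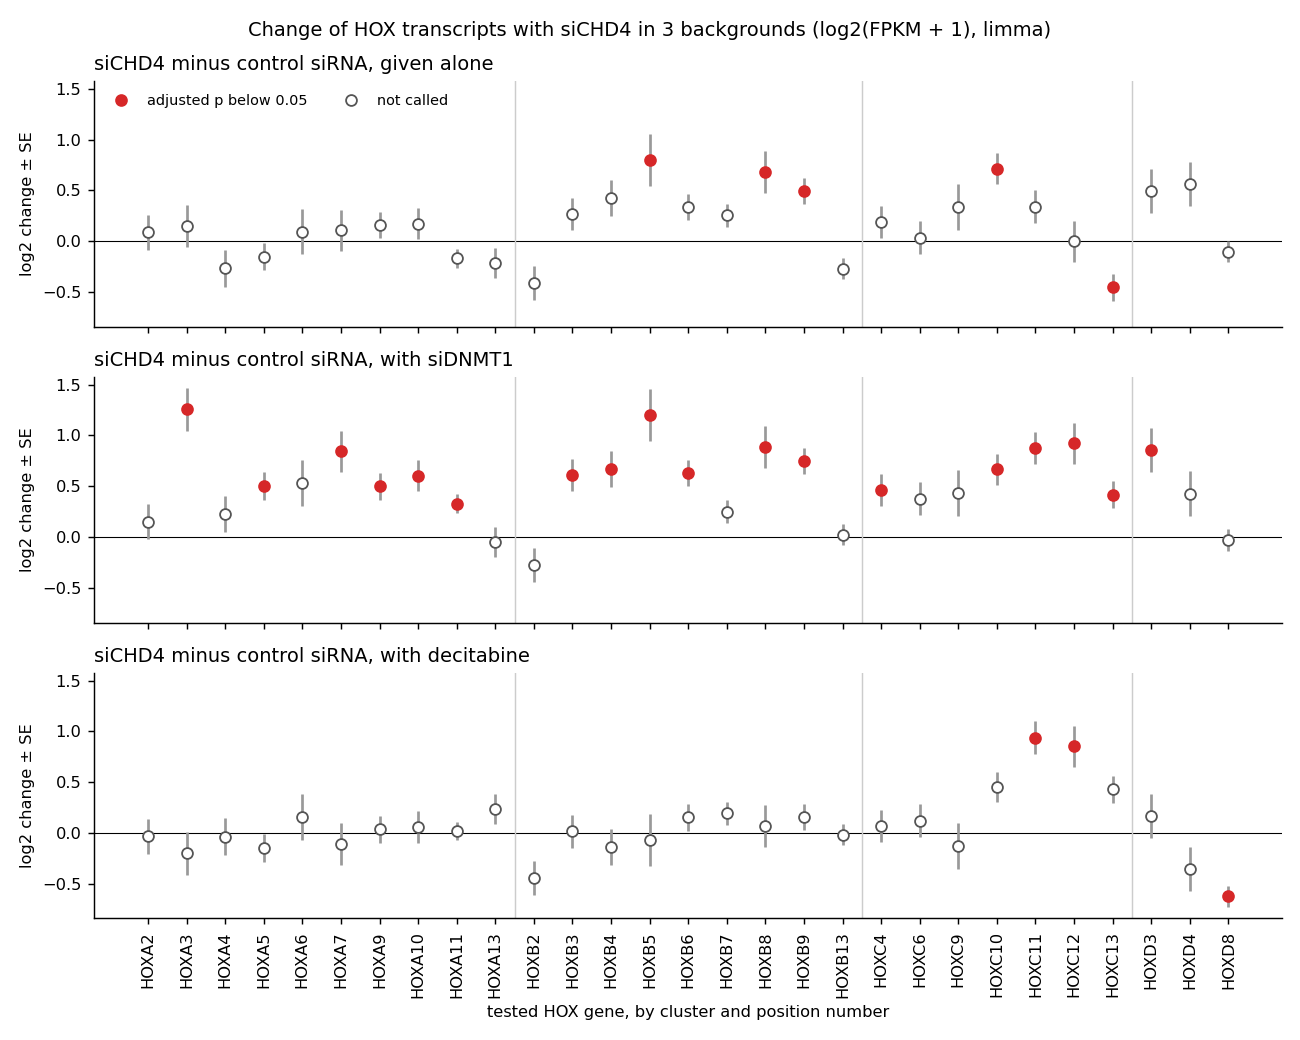
Log2 change with siCHD4 against control siRNA (y axis, on log2(FPKM + 1), bars are SE from limma) for the 29 tested HOX genes in order of cluster and position (x axis), in 3 panels by background; filled points are called at an adjusted p below 0.05. The middle panel holds 18 filled points above the line, the upper panel 4 above and 1 below, and the lower panel 2 above and 1 below.

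In HOXA the genes of low position number are the most head-ward. Values of 3 libraries are given in the order of replicates 0, 1 and 2. HOXA2, which patterns the second branchial arch, did not reach a group mean of 1 FPKM and ranged from 0.366 to 1.13 over the 18 libraries. HOXA3 is required for thymus and parathyroid formation. HOXA3 was at 1.59, 2.20 and 2.77 FPKM with control siRNA and at 2.32, 1.71 and 3.74 with siCHD4. With siDNMT1, HOXA3 read 1.81, 1.78 and 1.64 with control siRNA and 5.35, 4.64 and 6.85 with siCHD4. With decitabine, HOXA3 read 4.08, 2.16 and 2.64 and 2.46, 2.72 and 1.98, in the same order. All 3 libraries with siCHD4 + siDNMT1 were higher than the other 15 libraries. HOXA4 was among the lowest of the cluster. HOXA4 was at 1.14, 1.60 and 2.69 FPKM with control siRNA and at 1.32, 1.52 and 1.01 with siCHD4. With siDNMT1, HOXA4 read 1.42, 1.49 and 0.931 with control siRNA and 1.63, 1.56 and 1.77 with siCHD4. With decitabine, HOXA4 read 1.46, 0.796 and 1.58 and 1.24, 1.28 and 1.07, in the same order. HOXA4 was called in no comparison, although the siCHD4 values with siDNMT1 lay above their controls.

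The HOXA genes of positions 5 to 7 come next along the cluster. HOXA5 patterns the lung and the gut. HOXA5 was at 9.76, 8.93 and 11.2 FPKM with control siRNA and at 7.95, 7.54 and 11.4 with siCHD4. With siDNMT1, HOXA5 read 10.2, 12.2 and 11.7 with control siRNA and 17.1, 16.3 and 16.0 with siCHD4. With decitabine, HOXA5 read 10.7, 9.10 and 12.0 and 9.63, 8.53 and 10.1, in the same order. The siCHD4 + siDNMT1 libraries were again the 3 highest of 18. HOXA6 was at 4.18, 5.26 and 6.35 FPKM with control siRNA and at 4.18, 5.37 and 7.77 with siCHD4. With siDNMT1, HOXA6 read 4.33, 3.24 and 4.59 with control siRNA and 5.83, 4.89 and 8.47 with siCHD4. With decitabine, HOXA6 read 3.00, 5.51 and 4.04 and 5.39, 4.47 and 4.17, in the same order. HOXA6 was called in no comparison, and siCHD4 lay above its control without overlap with siDNMT1 alone of the 3 backgrounds. HOXA7 was at 3.34, 2.81 and 3.40 FPKM with control siRNA and at 2.90, 2.56 and 5.53 with siCHD4. With siDNMT1, HOXA7 read 2.68, 2.82 and 3.13 with control siRNA and 5.96, 5.47 and 6.41 with siCHD4. With decitabine, HOXA7 read 4.43, 2.01 and 3.13 and 2.89, 2.76 and 2.70, in the same order. For HOXA7, siCHD4 replicate 2 and control siRNA + decitabine replicate 0, the pair that stands apart, were each the highest of their group.

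The HOXA genes of positions 9 to 13 include the most abundant ones. HOXA9 acts in blood stem cells and is a leukaemia oncogene. HOXA9 was at 54.8, 60.7 and 69.5 FPKM with control siRNA and at 61.3, 58.7 and 90.00 with siCHD4. With siDNMT1, HOXA9 read 57.8, 63.5 and 57.8 with control siRNA and 78.9, 91.3 and 84.4 with siCHD4. With decitabine, HOXA9 read 53.7, 50.6 and 54.1 and 51.3, 56.0 and 55.1, in the same order. The HOXA9 values with siCHD4 lay above their controls without overlap in the siDNMT1 background and overlapped them in the other backgrounds. HOXA10 patterns the uterus. HOXA10 was at 28.0, 26.0 and 36.6 FPKM with control siRNA and at 30.0, 30.1 and 42.6 with siCHD4. With siDNMT1, HOXA10 read 24.5, 24.3 and 24.5 with control siRNA and 36.97, 40.1 and 36.1 with siCHD4. With decitabine, HOXA10 read 27.9, 22.7 and 19.9 and 26.5, 20.7 and 26.2, in the same order. The spread of HOXA10 with siCHD4 alone came from replicate 2. HOXA11 acts in the uterus and the forearm. HOXA11 was at 6.97, 5.90 and 7.62 FPKM with control siRNA and at 6.01, 5.77 and 6.02 with siCHD4. With siDNMT1, HOXA11 read 4.67, 5.32 and 5.34 with control siRNA and 6.14, 7.52 and 6.39 with siCHD4. With decitabine, HOXA11 read 5.45, 5.39 and 5.44 and 5.44, 5.32 and 5.79, in the same order. HOXA11 moved little, with group means between 5.11 and 6.83 FPKM. HOXA13 patterns the digits and the hindgut. HOXA13 was at 3.65, 4.01 and 3.45 FPKM with control siRNA and at 2.63, 2.42 and 4.33 with siCHD4. With siDNMT1, HOXA13 read 2.59, 2.70 and 2.45 with control siRNA and 2.53, 2.33 and 2.53 with siCHD4. With decitabine, HOXA13 read 1.93, 2.41 and 2.99 and 2.74, 3.31 and 3.02, in the same order. Control siRNA alone had the highest HOXA13 mean, 3.70 ± 0.280 FPKM.

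**Figure D3:**
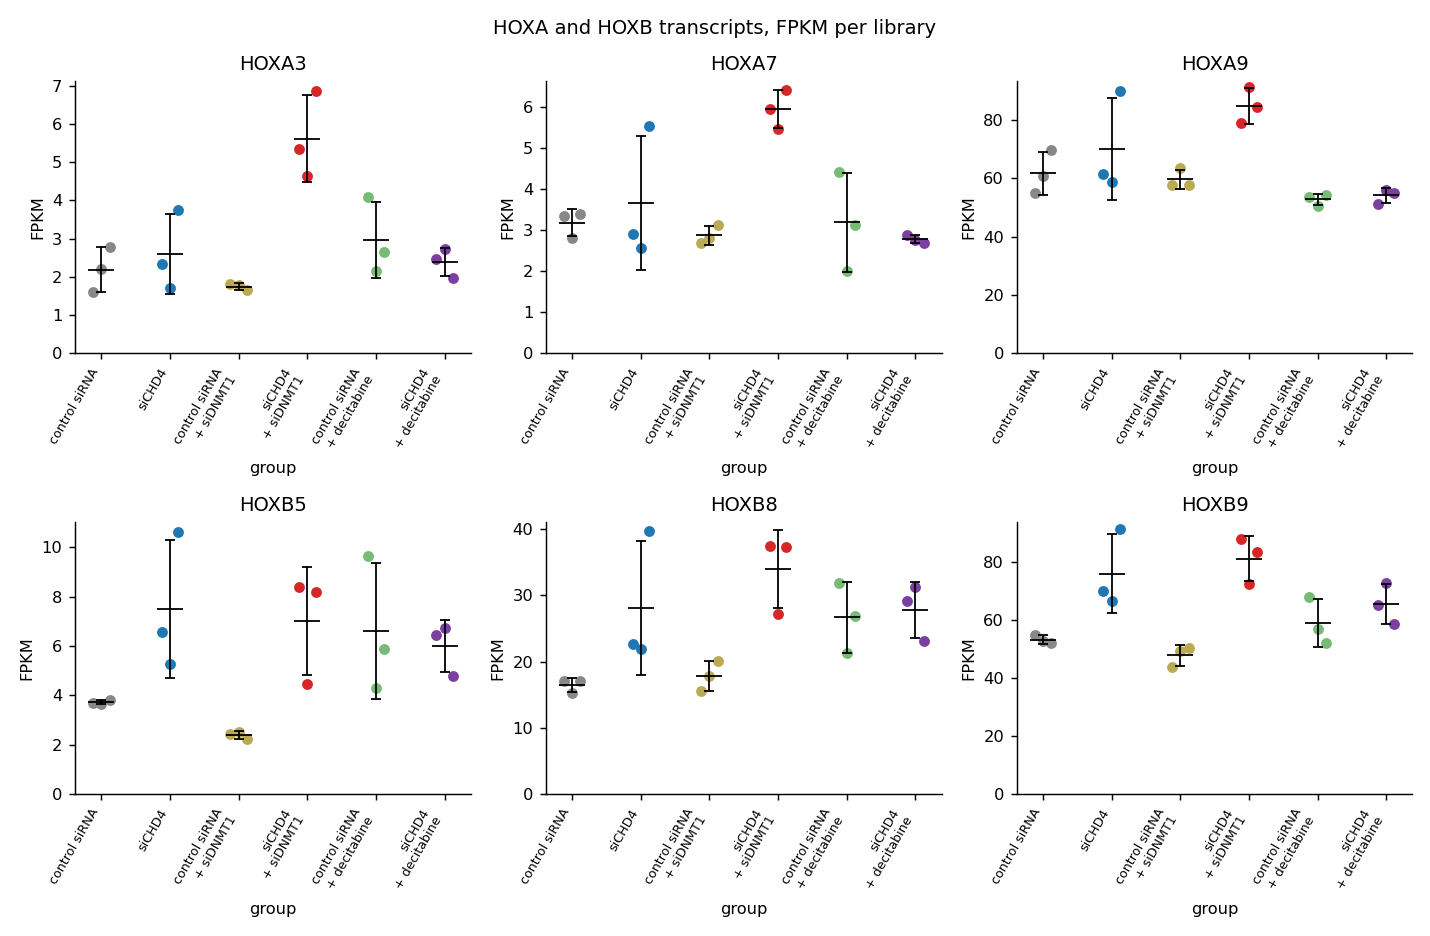
FPKM per library (y axis, from 0) of HOXA3, HOXA7, HOXA9, HOXB5, HOXB8 and HOXB9 in the 6 groups (x axis); points are libraries in the order of replicate 0, 1 and 2, bars the mean and SD of 3. The siCHD4 + siDNMT1 libraries lie above the control siRNA + siDNMT1 libraries in every panel, and siCHD4 replicate 2 is the highest of its group.

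In HOXB, HOXB1 was silent and HOXB2 acts in the hindbrain. HOXB2 was at 8.82, 6.46 and 9.04 FPKM with control siRNA and at 5.59, 6.85 and 5.04 with siCHD4. With siDNMT1, HOXB2 read 10.5, 7.88 and 9.14 with control siRNA and 6.59, 8.56 and 7.02 with siCHD4. With decitabine, HOXB2 read 12.1, 7.55 and 8.86 and 6.18, 6.36 and 7.33, in the same order. HOXB2 was the tested HOXB gene with the lowest siCHD4 log2 change in each background, -0.41 alone, -0.28 with siDNMT1 and -0.44 with decitabine, and none of these was called. HOXB3 overlaps its neighbours of positions 4 to 6. HOXB3 was at 6.36, 6.20 and 7.99 FPKM with control siRNA and at 8.23, 7.11 and 10.1 with siCHD4. With siDNMT1, HOXB3 read 4.28, 5.21 and 4.47 with control siRNA and 8.31, 6.59 and 8.03 with siCHD4. With decitabine, HOXB3 read 9.38, 5.68 and 7.05 and 8.49, 7.21 and 6.39, in the same order. HOXB3 was lower in every control siRNA + siDNMT1 library than in every control siRNA library, a difference that was not called (-0.47 (SE 0.16, adjusted p = 0.0769)). HOXB4 promotes self-renewal of blood stem cells. HOXB4 was at 3.72, 3.42 and 5.43 FPKM with control siRNA and at 5.25, 5.55 and 6.98 with siCHD4. With siDNMT1, HOXB4 read 4.06, 4.59 and 4.47 with control siRNA and 7.74, 7.13 and 7.77 with siCHD4. With decitabine, HOXB4 read 7.31, 3.91 and 4.67 and 5.47, 4.15 and 4.24, in the same order. HOXB4 was highest in siCHD4 + siDNMT1, where its 3 values differed by less than in any group but control siRNA + siDNMT1.

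HOXB5 acts in the enteric nervous system and the neural crest. HOXB5 was at 3.68, 3.65 and 3.80 FPKM with control siRNA and at 6.58, 5.25 and 10.6 with siCHD4. With siDNMT1, HOXB5 read 2.42, 2.53 and 2.23 with control siRNA and 8.39, 4.47 and 8.18 with siCHD4. With decitabine, HOXB5 read 9.65, 4.28 and 5.88 and 6.43, 6.74 and 4.796, in the same order. The control siRNA values of HOXB5 were close together at 3.65 to 3.80, and those of siCHD4 alone ranged from 5.25 to 10.6. HOXB6 was at 19.7, 20.3 and 24.1 FPKM with control siRNA and at 22.0, 26.0 and 34.9 with siCHD4. With siDNMT1, HOXB6 read 18.6, 17.8 and 20.8 with control siRNA and 30.5, 29.7 and 29.6 with siCHD4. With decitabine, HOXB6 read 24.8, 23.6 and 26.5 and 28.7, 29.6 and 25.3, in the same order. HOXB6 was separated from its control by siCHD4 with siDNMT1 and overlapped it in the other backgrounds. HOXB7 was at 62.4, 56.6 and 56.2 FPKM with control siRNA and at 59.7, 69.4 and 81.9 with siCHD4. With siDNMT1, HOXB7 read 58.1, 58.5 and 58.7 with control siRNA and 63.9, 78.2 and 67.5 with siCHD4. With decitabine, HOXB7 read 53.4, 64.2 and 66.9 and 73.6, 65.6 and 71.4, in the same order. HOXB7 stayed within 53.4 to 81.9 FPKM, and its siCHD4 log2 changes, 0.26, 0.25 and 0.19 in the order above, were not called.

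HOXB8 acts in blood progenitors and microglia. HOXB8 was at 17.1, 15.2 and 17.1 FPKM with control siRNA and at 22.6, 21.9 and 39.7 with siCHD4. With siDNMT1, HOXB8 read 15.6, 17.9 and 20.1 with control siRNA and 37.5, 27.2 and 37.4 with siCHD4. With decitabine, HOXB8 read 31.9, 21.3 and 26.9 and 29.2, 31.3 and 23.1, in the same order. HOXB8 was lowest with control siRNA and with control siRNA + siDNMT1, and these control groups did not overlap the siCHD4 groups of their backgrounds. HOXB9 patterns the thoracic skeleton. HOXB9 was at 54.8, 52.8 and 51.8 FPKM with control siRNA and at 69.9, 66.3 and 91.4 with siCHD4. With siDNMT1, HOXB9 read 43.6, 49.3 and 50.3 with control siRNA and 87.7, 72.4 and 83.2 with siCHD4. With decitabine, HOXB9 read 67.9, 56.7 and 52.0 and 65.2, 72.6 and 58.5, in the same order. For HOXB9 the siCHD4 values lay above the control values alone and with siDNMT1, and the decitabine groups overlapped. HOXB13 is the last gene of the cluster, set apart from the others, and is a marker of prostate and distal colon. HOXB13 was at 4.00, 5.23 and 4.53 FPKM with control siRNA and at 3.12, 3.97 and 3.80 with siCHD4. With siDNMT1, HOXB13 read 4.91, 5.08 and 4.69 with control siRNA and 5.07, 5.25 and 4.66 with siCHD4. With decitabine, HOXB13 read 3.77, 4.62 and 4.54 and 4.52, 4.07 and 4.10, in the same order. HOXB13 was called in no comparison, with group means between 3.63 and 4.99 FPKM, although all siCHD4 values without a second agent lay below their controls.

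The HOXC cluster was low in control cells, and HOXC11 had the largest log2 change of the 29 tested HOX genes against control siRNA in each of the 4 groups with a second agent. Since HOXC11 passed the filter on low values without any control siRNA library, this rank is a description only. HOXC4 did not reach a group mean of 1 FPKM and ranged from 0.299 to 1.22, HOXC5 from 0 to 0.908 and HOXC8 from 0.0582 to 0.760. HOXC6 was at 0.902, 1.02 and 1.53 FPKM with control siRNA and at 1.36, 0.835 and 1.42 with siCHD4. With siDNMT1, HOXC6 read 0.628, 1.15 and 0.517 with control siRNA and 1.41, 0.875 and 1.59 with siCHD4. With decitabine, HOXC6 read 0.905, 1.07 and 0.716 and 1.07, 1.10 and 0.997, in the same order. HOXC6 was called in no comparison and its groups overlapped in every one. HOXC9 acts in thoracic motor neurons. HOXC9 was at 0.567, 0.433 and 0.646 FPKM with control siRNA and at 1.09, 0.869 and 0.906 with siCHD4. With siDNMT1, HOXC9 read 0.926, 0.510 and 1.55 with control siRNA and 2.82, 1.29 and 1.08 with siCHD4. With decitabine, HOXC9 read 2.00, 1.09 and 1.01 and 1.42, 1.21 and 0.813, in the same order. The highest HOXC9 value was siCHD4 + siDNMT1 replicate 0. HOXC10 acts in lumbar motor neurons. HOXC10 was at 3.76, 3.36 and 3.44 FPKM with control siRNA and at 6.58, 5.08 and 7.84 with siCHD4. With siDNMT1, HOXC10 read 3.88, 5.11 and 5.53 with control siRNA and 9.03, 7.06 and 8.61 with siCHD4. With decitabine, HOXC10 read 6.60, 4.91 and 4.70 and 8.01, 8.02 and 7.07, in the same order. The siCHD4 values of HOXC10 lay above the matching control values in all 3 backgrounds, and all 15 libraries of the other groups lay above the 3 control siRNA libraries.

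HOXC11 is the neighbour of HOXC10 towards the end of the cluster and overlaps HOTAIR. HOXC11 was at 0.413, 0.189 and 0.412 FPKM with control siRNA and at 0.490, 0.593 and 1.02 with siCHD4. With siDNMT1, HOXC11 read 1.24, 2.41 and 1.96 with control siRNA and 3.84, 3.82 and 5.01 with siCHD4. With decitabine, HOXC11 read 1.46, 2.05 and 2.20 and 4.71, 4.46 and 4.40, in the same order. The groups formed 3 levels, below 1.1 FPKM without a second agent, 1.24 to 2.41 with siDNMT1 or decitabine and control siRNA, and 3.82 to 5.01 with siCHD4 added. HOXC12 was listed at 0 in 8 of 18 libraries, among them all 6 without a second agent. HOXC12 was at 0, 0 and 0 FPKM with control siRNA and at 0, 0 and 0 with siCHD4. With siDNMT1, HOXC12 read 0, 0 and 0.340 with control siRNA and 0.926, 0.672 and 1.82 with siCHD4. With decitabine, HOXC12 read 0.694, 0.756 and 0.1496 and 2.24, 1.82 and 1.21, in the same order. HOXC12 reached 1 FPKM in 4 libraries, all of which had received siCHD4 with siDNMT1 or decitabine. HOXC13 acts in hair and nail. HOXC13 was at 1.43, 2.16 and 1.48 FPKM with control siRNA and at 1.17, 0.893 and 0.803 with siCHD4. With siDNMT1, HOXC13 read 2.58, 3.62 and 2.78 with control siRNA and 4.88, 4.13 and 3.94 with siCHD4. With decitabine, HOXC13 read 2.03, 2.32 and 2.58 and 3.40, 3.93 and 3.08, in the same order. HOXC13 was below its control with siCHD4 alone and above it with siCHD4 in both other backgrounds, without overlap in any of the 3.

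**Figure D4:**
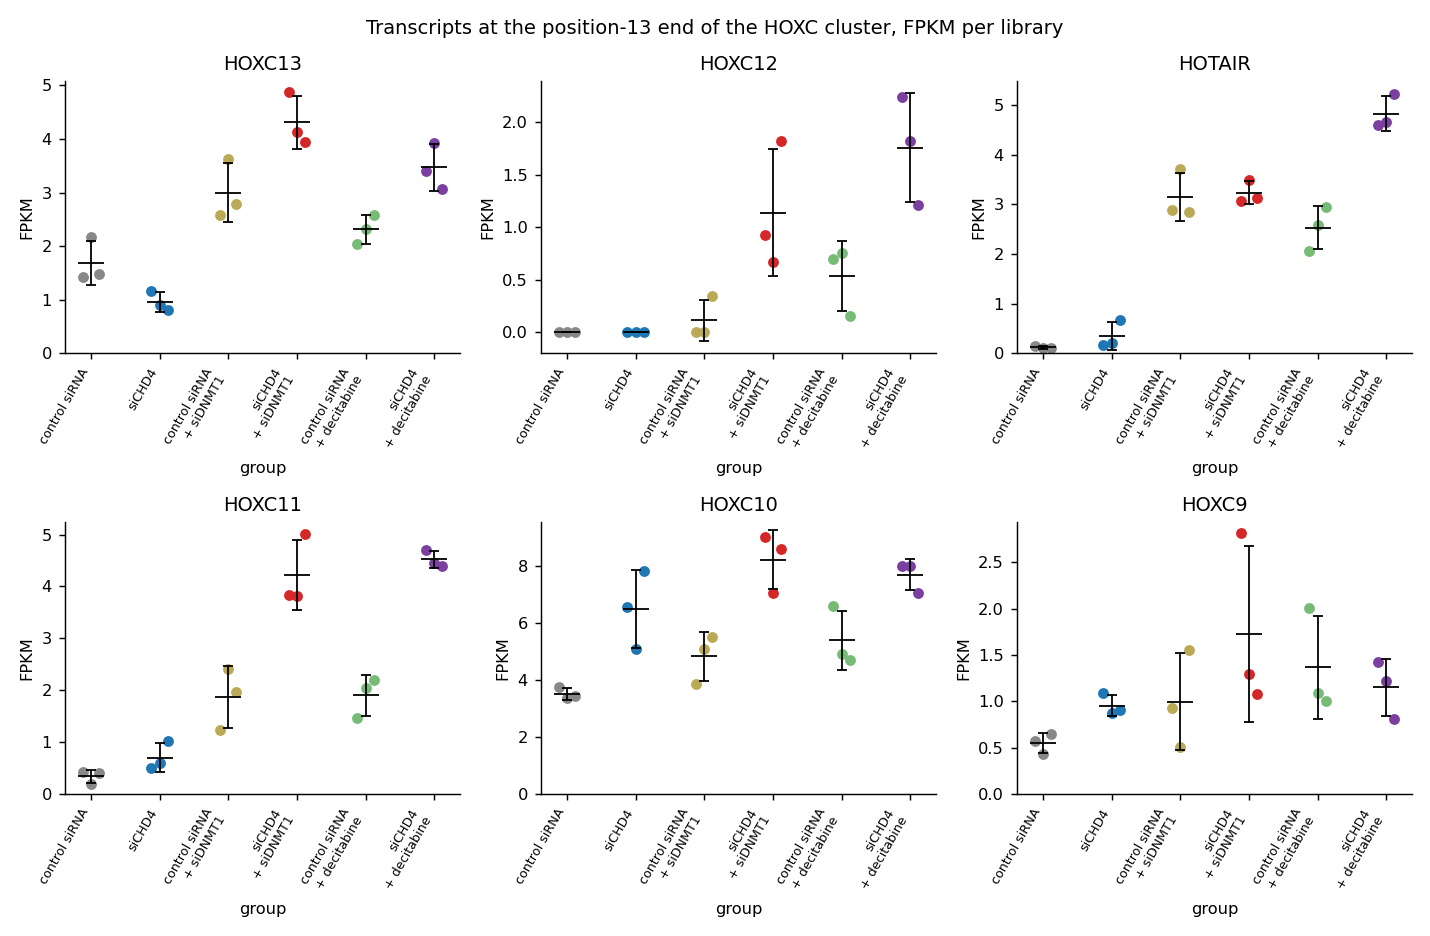
FPKM per library (y axis) of HOXC13, HOXC12, the antisense RNA HOTAIR, HOXC11, HOXC10 and HOXC9 in the 6 groups (x axis); points are libraries in the order of replicate 0, 1 and 2, bars the mean and SD of 3. HOXC12 is at 0 in the first 2 groups, and HOXC11 and HOXC13 are highest in the siCHD4 groups with a second agent.

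In HOXD the level came from positions 3, 4 and 8. HOXD3 was at 0.361, 0.552 and 0.927 FPKM with control siRNA and at 0.758, 0.934 and 2.31 with siCHD4. With siDNMT1, HOXD3 read 0.197, 0.379 and 0.677 with control siRNA and 1.61, 1.85 and 1.20 with siCHD4. With decitabine, HOXD3 read 0.425, 0.347 and 0.504 and 0.530, 0.959 and 0.370, in the same order. HOXD3 exceeded 1 FPKM in 4 libraries, siCHD4 replicate 2 and the 3 of siCHD4 + siDNMT1. HOXD4 was at 1.09, 1.17 and 1.58 FPKM with control siRNA and at 1.84, 1.80 and 3.74 with siCHD4. With siDNMT1, HOXD4 read 1.23, 1.46 and 1.20 with control siRNA and 2.27, 1.58 and 2.48 with siCHD4. With decitabine, HOXD4 read 2.45, 0.890 and 1.85 and 1.20, 1.19 and 0.853, in the same order. HOXD4 was called in no comparison, although siCHD4 lay above its control without overlap both alone and with siDNMT1. HOXD8 was at 5.72, 5.94 and 6.73 FPKM with control siRNA and at 6.02, 5.42 and 5.45 with siCHD4. With siDNMT1, HOXD8 read 6.45, 5.68 and 6.65 with control siRNA and 5.88, 6.14 and 6.30 with siCHD4. With decitabine, HOXD8 read 7.30, 5.04 and 5.94 and 3.30, 3.65 and 3.74, in the same order. HOXD8 was between 5.04 and 7.30 FPKM in the 15 libraries of the other groups and between 3.30 and 3.74 with siCHD4 + decitabine. Of the untested genes, HOXD1 was highest with siCHD4 + siDNMT1 (0.660 ± 0.208 FPKM) and lowest with siCHD4 alone (0.0540 ± 0.0628), and HOXD12, HOXD13, HOXD11, HOXD10 and HOXD9 peaked at 0.573, 0.839, 0.354, 0.279 and 0.0641 FPKM in a single library, in that order.

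Among the called changes with siCHD4 alone, HOXC10 rose by 0.71 (SE 0.15, adjusted p = 0.00435) on the log2 scale, limma with Benjamini-Hochberg adjustment as for all adjusted p-values here. HOXB9 rose by 0.49 (SE 0.13, adjusted p = 0.0146), HOXB8 by 0.68 (SE 0.21, adjusted p = 0.0305) and HOXB5 by 0.80 (SE 0.26, adjusted p = 0.0422). HOXC13 changed by -0.45 (SE 0.13, adjusted p = 0.0262). The ratios of group means were 1.85 for HOXC10, 1.43 for HOXB9, 1.70 for HOXB8, 2.02 for HOXB5 and 0.564 for HOXC13. Leaving out siCHD4 replicate 2 ended the calls of HOXB9 (adjusted p = 0.0557), HOXB8 (0.122), HOXB5 (0.168) and HOXC13 (0.08), and the HOXB5 log2 change was then 0.55. The HOXB8 call was also lost without any 1 control siRNA library (0.0556 to 0.0975), that of HOXB5 without any 1 control siRNA library or siCHD4 replicate 0 (0.0570 to 0.101), and that of HOXC13 without control siRNA replicate 1 (0.128) or siCHD4 replicate 1 (0.0587), whereas HOXC10 kept its call without any 1 library. In a fit on these groups alone, which left fewer residual degrees of freedom, none of the 5 was called (limma, adjusted p 0.0611 for HOXC10 to 0.147 for HOXB8).

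In the siDNMT1 background HOXA3 rose by 1.26 (SE 0.21, adjusted p = 0.000226), HOXB9 by 0.75 (SE 0.13, adjusted p = 0.000258), HOXC11 by 0.88 (SE 0.16, adjusted p = 0.000482) and HOXB6 by 0.63 (SE 0.13, adjusted p = 0.00111). The HOXA3 mean was 3.22 times its control and the HOXB9 mean 1.70 times. Also called higher were HOXA5, HOXA7, HOXA9, HOXA10, HOXA11, HOXB3, HOXB4, HOXB5, HOXB8, HOXC4, HOXC10, HOXC12, HOXC13 and HOXD3, with log2 changes from 0.33 for HOXA11 to 1.20 for HOXB5. Of these, HOXC4, HOXC12 and HOXD3 passed the filter on low values mainly through siCHD4 libraries, so their calls are a description only. The 11 genes not called were HOXA2, HOXA4, HOXA6, HOXA13, HOXB2, HOXB7, HOXB13, HOXC6, HOXC9, HOXD4 and HOXD8. The call of HOXC13 was lost without control siRNA + siDNMT1 replicate 0 or 2 or siCHD4 + siDNMT1 replicate 0 (adjusted p 0.0564 to 0.0829), and that of HOXC4 without replicate 0 or 2 of either group (0.0712 to 0.0975). The other 16 kept their call without any 1 library. Quantile normalization ended the calls of HOXC12 (adjusted p = 0.0555), HOXA11 (0.130), HOXC13 (0.258) and HOXC4 (0.879). In this comparison 6 of 9 tested colon markers and all tested fibroblast and blood markers were also called higher with siCHD4, while KRT8 and KRT18 lowered the colon marker sum, as given above.

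In the decitabine background HOXC11 rose by 0.94 (SE 0.16, adjusted p = 0.00257) and HOXC12 by 0.85 (SE 0.20, adjusted p = 0.0235), while HOXD8 changed by -0.63 (SE 0.11, adjusted p = 0.00228). The mean ratios were 2.38, 3.29 and 0.585. HOXC12 passed the filter on low values through siCHD4 libraries with a second agent, so its call is a description only. HOXC10 and HOXC13 lay above their controls without overlap but were not called (0.45 (SE 0.15, adjusted p = 0.11) and 0.43 (SE 0.13, adjusted p = 0.0857)). The HOXC12 call was lost without control siRNA + decitabine replicate 2 (adjusted p = 0.0869) or siCHD4 + decitabine replicate 0 (0.123) or 1 (0.0895), and with the pseudocount 0.1 in place of 1 (0.128), quantile normalization (0.0806) or a fit on these groups alone (0.146). That last fit also ended the call of HOXD8 (0.110). CHD4 transcript was reduced less in this background than in the others, as given above, and its part in these counts was not tested.

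Against control siRNA alone, siDNMT1 with control siRNA raised HOXC11 by 1.08 (SE 0.16, adjusted p = 0.000302) and HOXC13 by 0.57 (SE 0.13, adjusted p = 0.0103), 2 of 29 beside 6.94% of all genes. It lowered 1, HOXA11, beside 4.40% of all genes, with a log2 change of -0.35 (SE 0.09, adjusted p = 0.0211). The HOXC11 mean was 5.53 times the control mean, from a control level under 1 FPKM. The call of HOXC13 was lost without control siRNA replicate 0 (adjusted p = 0.0550) or control siRNA + siDNMT1 replicate 1 (0.0631), and that of HOXA11 without control siRNA replicate 0 or 2 or control siRNA + siDNMT1 replicate 0 (0.0760 to 0.102). HOXC11 kept its call without any 1 library. HOXC13 also lost its call under quantile normalization (0.0563) and HOXA11 in a fit on these groups alone (0.0603). Decitabine with control siRNA raised 3, beside 9.60% of all genes, and lowered 2, beside 8.63%. HOXC11 rose by 1.11 (SE 0.16, adjusted p = 0.000229), HOXC10 by 0.49 (SE 0.15, adjusted p = 0.0333) and HOXB8 by 0.65 (SE 0.21, adjusted p = 0.0401). HOXA13 changed by -0.46 (SE 0.15, adjusted p = 0.039) and HOXA11 by -0.28 (SE 0.09, adjusted p = 0.0483). Without the shallow control siRNA + decitabine replicate 0 the HOXC10 call (adjusted p = 0.122), the HOXB8 call (0.134), the HOXA13 call (0.133) and the HOXA11 call (0.0753) were lost. The calls of HOXC10, HOXB8 and HOXA13 were also lost without any 1 control siRNA library and that of HOXA11 without replicate 0 or 2, and likewise those of HOXA11 and HOXA13 without control siRNA + decitabine replicate 1 and of HOXA11 and HOXB8 without replicate 2 (0.0596 to 0.172). HOXC11 was the 1 gene of the 5 that kept its call without any 1 library. As it passed the filter without any control siRNA library, its calls with siDNMT1 and with decitabine are a description only.

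The groups given both siCHD4 and a second agent were compared with control siRNA. The median log2 change of the 29 HOX genes was 0.46 with siCHD4 + siDNMT1 and 0.00 with siCHD4 + decitabine. The siCHD4 + siDNMT1 group had 15 HOX genes called higher, beside 29.3% of all genes, and 1 lower, HOXA13, beside 29.8%. HOXC11 rose by 1.96 (SE 0.16, adjusted p = 1.18e-07), and its mean was 12.5 times the control mean. HOXC13 rose by 0.99 (SE 0.13, adjusted p = 1.69e-05), HOXC10 by 1.02 (SE 0.15, adjusted p = 3.71e-05) and HOXC12, listed at 0 in the control, by 1.06 (SE 0.20, adjusted p = 0.000386). HOXA13 changed by -0.44 (SE 0.15, adjusted p = 0.0166), a call lost without control siRNA replicate 1 (adjusted p = 0.0582). The others called higher were HOXA3, HOXA5, HOXA7, HOXA9, HOXB4, HOXB5, HOXB6, HOXB8, HOXB9, HOXC9 and HOXD3. Of these, the HOXB5 call was lost without replicate 0 or 1 of control siRNA or 0 or 2 of siCHD4 + siDNMT1 (0.0567 to 0.103), that of HOXC9 without siCHD4 + siDNMT1 replicate 0 (0.0621), and that of HOXD3 without control siRNA replicate 0 (0.0674) or siCHD4 + siDNMT1 replicate 1 (0.0574). Quantile normalization ended the calls of HOXC12 (0.105), HOXB5 (0.111), HOXC9 (0.613) and HOXD3 (0.761) as well. The siCHD4 + decitabine group had 6 called higher, beside 18.0% of all genes, and 2 lower, beside 16.9%. HOXC11 rose by 2.05 (SE 0.16, adjusted p = 1.88e-07), 13.4 times the control mean, HOXC12 by 1.44 (SE 0.20, adjusted p = 7.48e-05), HOXC10 by 0.94 (SE 0.15, adjusted p = 0.000223) and HOXC13 by 0.74 (SE 0.13, adjusted p = 0.00064), and HOXB8 and HOXB6 were also called. HOXD8 changed by -0.64 (SE 0.11, adjusted p = 0.000319) and HOXA11 by -0.26 (SE 0.09, adjusted p = 0.0397), the latter lost without control siRNA replicate 0 or 2 or siCHD4 + decitabine replicate 0 or 1 (0.103 to 0.165). The HOXB6 call was lost without replicate 0 or 1 of either group (0.103 to 0.122), and that of HOXB8 without control siRNA replicate 1 or siCHD4 + decitabine replicate 0 or 1 (0.0502 to 0.0645). HOXC9, HOXC11, HOXC12 and HOXD3 passed the filter on low values without any control siRNA library, so their calls against it are a description only. The siCHD4 + siDNMT1 and siCHD4 + decitabine comparisons share the control siRNA libraries with each other and with those of the single agents, so their values are set side by side only.

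**Figure D5:**
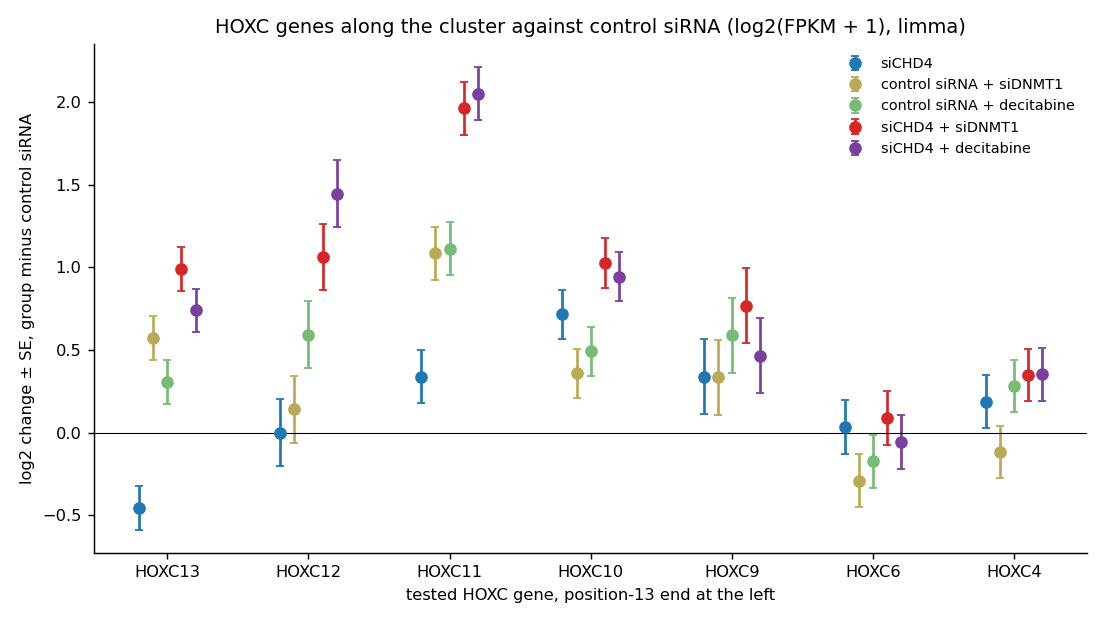
Log2 change against control siRNA (y axis, on log2(FPKM + 1), bars are SE from limma) of the 7 tested HOXC genes in their order along the cluster (x axis), for the 5 other groups. HOXC10 to HOXC13 are 0.74 or more above 0 with siCHD4 and a second agent, and HOXC6 lies between -0.29 and 0.09 in all 5 groups.

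Whether the siCHD4 change itself differed between backgrounds was tested for each gene. Between siDNMT1 and siCHD4 alone 3 HOX genes were called, all with a higher siCHD4 change under siDNMT1, beside 2.83% of all genes in that direction, and 0 the other way, beside 1.29% (limma; 0 also at an unadjusted p below 0.05). They were HOXC13, with a difference of 0.87 (SE 0.19, adjusted p = 0.0146), HOXA3 with 1.11 (SE 0.30, adjusted p = 0.0486) and HOXA11 with 0.50 (SE 0.13, adjusted p = 0.0437). Between decitabine and siCHD4 alone HOXC13 was the 1 gene called, with 0.89 (SE 0.19, adjusted p = 0.0305), beside 0.773% of all genes higher, and 0 were called lower, beside 0.383% (4 at an unadjusted p below 0.05). Between siDNMT1 and decitabine 4 were called, beside 4.16% of all genes, and 0 the other way, beside 4.24% (0 at an unadjusted p below 0.05). These were HOXA3 with 1.46 (SE 0.30, adjusted p = 0.012), HOXD8 with 0.60 (SE 0.15, adjusted p = 0.0288), HOXB5 with 1.27 (SE 0.37, adjusted p = 0.0457) and HOXA5 with 0.65 (SE 0.19, adjusted p = 0.0485). HOXC11, whose siCHD4 change was called in both the siDNMT1 and the decitabine background, had a difference between them of -0.06 (95% interval -0.55 to 0.43). The count between siDNMT1 and siCHD4 alone was 9 without siCHD4 replicate 2, 12 without both libraries that stand apart, and 0 or 1 without each of 9 other libraries. The count between siDNMT1 and decitabine ran from 1 to 9, and that between decitabine and siCHD4 alone from 0 to 2, on leaving out 1 library. Of the differences, HOXA3 between siDNMT1 and decitabine kept its call without any 1 library, and HOXC13 between siDNMT1 and siCHD4 alone lost it without siCHD4 + siDNMT1 replicate 0 only (adjusted p = 0.0629). Of the 12 libraries in each difference, any 1 of 10 ended the call of HOXA11 (0.0636 to 0.130), HOXA3 against siCHD4 alone (0.0558 to 0.154) and HOXB5 (0.0568 to 0.126), and any 1 of 11 that of HOXA5 (0.0649 to 0.122). HOXD8 lost its call without 6 (0.0597 to 0.0797), which were replicates 0 and 1 of control siRNA + siDNMT1, 0 and 2 of siCHD4 + siDNMT1 and 0 and 2 of siCHD4 + decitabine. The HOXC13 difference between decitabine and siCHD4 alone lost its call without replicate 1 of control siRNA or siCHD4, control siRNA + decitabine replicate 0, or siCHD4 + decitabine replicate 0 or 1 (0.0502 to 0.0931).

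The RNAs transcribed from within the clusters and the partners of HOX proteins were also read out. For each list of other genes the counts with siCHD4 stand beside the shares of all tested genes called higher and lower, which were 9.58% and 9.71% alone, 24.8% and 24.6% with siDNMT1, and 3.26% and 1.31% with decitabine. Of the 31 cluster RNA names listed, 18 are in the table and 11 were tested, and siCHD4 raised 2 and lowered 1 alone, raised 3 and lowered 1 with siDNMT1, and raised 1 and lowered 0 with decitabine (median log2 change 0.18, 0.43 and -0.08). The count of 3 of 11 with siDNMT1 is near the 24.8% of all genes. Without both libraries that stand apart 1 cluster RNA was called higher with siCHD4 alone. HOTAIR, an antisense RNA between HOXC12 and HOXC11, read 0.152, 0.107 and 0.0997 FPKM with control siRNA and 0.160, 0.204 and 0.662 with siCHD4. With siDNMT1, HOTAIR read 2.88, 3.70 and 2.84 and 3.07, 3.50 and 3.13, and with decitabine 2.06, 2.59 and 2.94 and 4.59, 4.65 and 5.22, in the same order. HOTAIR was called higher with siCHD4 in the decitabine background (0.73 (SE 0.13, adjusted p = 0.0044)) and not in the siDNMT1 background (0.04 (SE 0.13, adjusted p = 0.843)), and the difference between these was called (-0.69 (SE 0.19, adjusted p = 0.0389)). HOXA-AS3, antisense to HOXA genes, rose from 0.466 ± 0.143 to 1.64 ± 0.1003 FPKM with siCHD4 in the siDNMT1 background. HOXB-AS3 rose there from 32.0 ± 1.62 to 50.2 ± 3.21, and HOXA-AS4 from 2.02 ± 0.330 to 4.16 ± 0.695. HOTAIRM1, of the HOXA cluster and named after its values were seen, was the RNA that fell, from 14.3 ± 1.55 to 9.88 ± 0.198 with siCHD4 alone and from 14.1 ± 2.40 to 10.2 ± 2.04 with siDNMT1.

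TALE homeodomain proteins bind DNA together with HOX proteins. Of 9 such genes 7 were tested, and siCHD4 raised 3 and lowered 1 alone, raised 5 and lowered 1 with siDNMT1, and raised 2 and lowered 0 with decitabine (median log2 change 0.36, 0.39 and 0.20). The shares of all genes called higher were 9.58%, 24.8% and 3.26%, and those called lower 9.71%, 24.6% and 1.31%. These cofactor counts were the same without both libraries that stand apart. MEIS3 read 0.610, 0.392 and 0.467 FPKM with control siRNA and 3.35, 4.56 and 7.63 with siCHD4. With siDNMT1, MEIS3 read 0.233, 0.640 and 0.554 and 7.25, 8.58 and 7.18, and with decitabine 0.227, 0.684 and 0.883 and 3.38, 3.51 and 2.55. The siCHD4 values of MEIS3 did not overlap their controls in any background (log2 changes 2.00, 2.56 and 1.39, adjusted p at most 0.000915). No library without siCHD4 reached 1 FPKM of MEIS3, which passed the filter on low values through siCHD4 libraries. Its calls, also within the cofactor counts, are a description only. PBX2 rose from 16.8 ± 0.399 to 26.4 ± 3.42 alone and from 15.1 ± 0.114 to 31.6 ± 1.63 with siDNMT1. MEIS2 fell from 2.41 ± 0.217 to 1.14 ± 0.399 alone, and PKNOX1 rose from 5.14 ± 0.699 to 6.85 ± 0.422. Of the 8 ParaHox and EVX genes, relatives of the HOX genes, only CDX2 was tested. CDX2, the intestinal master regulator, read 43.6, 39.1 and 31.1 FPKM with control siRNA and 47.4, 67.9 and 71.0 with siCHD4. With siDNMT1, CDX2 read 44.2, 42.9 and 46.6 and 65.7, 68.8 and 64.6, and with decitabine 43.97, 47.9 and 50.9 and 57.1, 54.7 and 57.5. CDX2 was called higher alone (0.69 (SE 0.13, adjusted p = 0.00272)) and with siDNMT1 (0.57 (SE 0.13, adjusted p = 0.00303)) and not with decitabine (0.24 (SE 0.13, adjusted p = 0.328)). The calls given here for HOTAIR, HOTAIRM1, MEIS3, PBX2, MEIS2, PKNOX1 and CDX2 were the same without both libraries that stand apart.

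Polycomb, trithorax and retinoic acid genes were read in the same way. All 27 Polycomb genes were tested, and siCHD4 raised 3 and lowered 3 alone, raised 5 and lowered 5 with siDNMT1, and raised 1 and lowered 0 with decitabine (median log2 change 0.04, -0.05 and 0.00). The 5 of 27 in each direction with siDNMT1 are near the 24.8% and 24.6% of all genes. Without both libraries that stand apart the Polycomb counts were 2 higher and 6 lower alone and 6 and 8 with siDNMT1. In the siDNMT1 background PHC1 rose from 2.58 ± 0.162 to 6.78 ± 0.833 FPKM and PHF1 from 10.7 ± 1.30 to 19.6 ± 2.31, while PCGF6 fell from 22.5 ± 1.99 to 13.8 ± 0.798 and RBBP7 from 130.2 ± 0.395 to 92.3 ± 5.49. Of the 16 trithorax-group and activator genes tested, siCHD4 raised 2 alone, 9 with siDNMT1 and 0 with decitabine, and lowered 0, 2 and 0 (median log2 change 0.10, 0.38 and 0.14). The 9 of 16 stand beside 24.8% of all genes and the 2 of 16 alone beside 9.58%. Without both libraries the trithorax counts were 1 higher and 1 lower alone and 9 and 4 with siDNMT1. MLL2 and MLL4, histone methyltransferases of the MLL family, rose with siDNMT1 from 2.86 ± 0.395 to 8.06 ± 2.57 and from 3.43 ± 0.624 to 8.82 ± 2.50. AFF1 rose from 7.50 ± 1.05 to 14.7 ± 2.05, and ASH2L, a core subunit of the MLL complexes, fell from 20.2 ± 1.22 to 15.2 ± 0.286. Retinoic acid induces HOX genes from the low-numbered end of a cluster. Of 10 tested genes of its pathway, siCHD4 raised 1 alone, 3 with siDNMT1 and 0 with decitabine, and lowered 0, 1 and 1 (median log2 change 0.03, 0.09 and -0.02). The higher counts are near the 9.58% of all genes alone and the 24.8% with siDNMT1. Without both libraries these pathway counts were 2 higher and 1 lower alone, 3 and 2 with siDNMT1, and 2 and 1 with decitabine. The receptor genes RARA and RXRA rose with siDNMT1, from 3.33 ± 0.409 to 5.55 ± 0.448 and from 12.9 ± 0.932 to 17.2 ± 1.09, as did the binding protein gene CRABP2, from 31.1 ± 2.19 to 58.8 ± 5.53, while the enzyme gene ALDH1A3 fell from 1.11 ± 0.107 to 0.582 ± 0.117. ALDH1A3 reached a group mean of 1 FPKM only in the control siRNA groups with a second agent. Calls of its fall with siCHD4, also within the pathway counts, are a description only for that reason.

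Genes that flank the clusters were read last. Of 11 tested neighbours siCHD4 raised 1 and lowered 1 alone, raised 2 and lowered 2 with siDNMT1, and raised and lowered 0 with decitabine (median log2 change -0.05, 0.03 and 0.07). The 2 of 11 in each direction with siDNMT1 are near the 24.8% and 24.6% of all genes. Without both libraries that stand apart 2 neighbours were called higher and 2 lower alone, and 1 and 1 with decitabine. On the chromosome of HOXC, CALCOCO1 rose with siDNMT1 from 11.0 ± 0.359 to 27.0 ± 0.0623 FPKM and CBX5, which encodes a heterochromatin protein, from 15.9 ± 1.43 to 33.0 ± 3.51. ATP5G2, of the same chromosome, fell from 135 ± 5.38 to 61.2 ± 7.98, and MTX2, beside HOXD, fell from 38.1 ± 2.42 to 28.6 ± 3.32.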

How the data were processed

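Per the labels' protocols, RNA of SW48 cells (Trizol or RNeasy extraction, 1 µg per library) was depleted of ribosomal RNA and sequenced from stranded libraries. The authors deposited FPKM, with each library in its own column. TopHat2 2.0.9, Cuffdiff 2.1.1 and hg19 are named, per the submitters' processing notes. For annotation, strand setting and scaling of the counting, the sources used here give nothing. Of 23599 entries 28 carry a number (a converted date) in place of a name and were left out. Read totals are unknown, so no counting intervals are given. Relative depth was read from the smallest step between values of low genes.

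Values were taken to log2(FPKM + 1), and genes reaching 1 FPKM in 3 or more of 18 libraries were kept. The limma 3.58.1 model (R 4.3.3, trended prior) had a mean for each of the 6 groups, which left 12 residual degrees of freedom. All tests are two-sided. One entry that matches the symbol rule is not reported here and is left out of every HOX count, but not of the fit. The fit was tested on simulated data. Groups and replicate numbers come from the titles. The HOX members, gene lists and tests were chosen with earlier results of these data known. Named genes are all HOX members, with every library's value where a group mean reaches 1 FPKM and full test values for at most 4 genes per direction and comparison, those called in a difference between backgrounds, and at most 4 called genes per other list. Lists were HOX cofactors, ParaHox and EVX genes, cluster RNAs, neighbours, Polycomb, trithorax and retinoic acid genes, and markers of colon epithelium, fibroblast, blood, endothelium and neural cells. The alternatives are given in the closing section. Gene spans are from GENCODE on GRCh37 and promoters from RefSeq on GRCh38.p14.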

Additional observations from a re-analysis of the deposited data

Results flagged for a closer look

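For 6 HOX genes the siCHD4 change differed between backgrounds in the test of the difference itself (limma, log2 scale, adjusted over all tested genes). Relative to siCHD4 alone, the change with siDNMT1 was higher by 0.87 for HOXC13 (adjusted p = 0.0146), by 1.11 for HOXA3 (adjusted p = 0.0486) and by 0.50 for HOXA11 (adjusted p = 0.0437). HOXC13 fell with siCHD4 alone and rose with siCHD4 in the siDNMT1 background, both called. With decitabine the HOXC13 change was higher than alone by 0.89 (adjusted p = 0.0305). Relative to decitabine, the change with siDNMT1 was higher by 1.46 for HOXA3 (adjusted p = 0.012), by 0.65 for HOXA5 (adjusted p = 0.0485), by 1.27 for HOXB5 (adjusted p = 0.0457) and by 0.60 for HOXD8 (adjusted p = 0.0288). The CHD4 levels reached and the schedules differed between the backgrounds, and their part was not tested. Leaving out 1 library ended the call of each of these but HOXA3 between siDNMT1 and decitabine in at least 1 case.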

How the results depend on the processing

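Of 66 called HOX changes over the 10 comparisons, 34 held under every alternative, 32 lost the call at least once and 0 changed sign. Precision rests on 3 libraries a group, and low genes such as HOXC12 rest on few fragments of unknown number. The cause of each shift was not tested. Libraries of the same replicate number showed no strong positive correlation of their deviations from the group means (-0.31 to 0.126). Libraries of different numbers were not compared in this way, so a batch that does not follow the numbers was not tested. The fit with a replicate block called 19 genes higher with siCHD4 in the siDNMT1 background, against 18 without it.

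HOX genes called higher, with the reported count first, moved as follows. With siCHD4 alone they were 4, 2 without the filter, 0 with the fit on the compared groups alone, 2 without both libraries that stand apart (an alternative chosen after seeing the data), and 1 to 5 leaving out 1 library. With siCHD4 in the siDNMT1 background they were 18 (16 to 20 leaving out 1 library), and in the decitabine background 2, 1 with the pseudocount 0.1, 1 under quantile normalization, 1 with the compared groups alone and 1 to 3 leaving out 1 library. For siDNMT1 against control siRNA they were 2, 1 under quantile normalization and 1 to 2 leaving out 1 library. For decitabine they were 3, 1 without the filter, under quantile normalization or with the compared groups alone, and 1 to 4 leaving out 1 library. For siCHD4 + siDNMT1 they were 15 (13 to 16 leaving out 1 library), and for siCHD4 + decitabine 6, 10 with the compared groups alone and 10 without both libraries. For the difference between siDNMT1 and siCHD4 alone they were 3, 1 with the pseudocount 0.1, 1 with the compared groups alone, 12 without both libraries, and 0 to 9 leaving out 1 library. Between decitabine and siCHD4 alone they were 1, 0 with the compared groups alone and 0 to 2 leaving out 1 library. Between siDNMT1 and decitabine they were 4, 2 without the filter, 10 with the compared groups alone, 10 without both libraries, and 1 to 9 leaving out 1 library.

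HOX genes called lower moved likewise. With siCHD4 alone they were 1, 2 without the filter, under quantile normalization or without both libraries, 0 with the compared groups alone and 0 to 1 leaving out 1 library. In the siDNMT1 background they were 0 and 1 under quantile normalization, and in the decitabine background 1 and 0 with the compared groups alone. For siDNMT1 against control siRNA they were 1, 2 under quantile normalization, 3 with the compared groups alone, 3 without both libraries, and 0 to 1 leaving out 1 library. For decitabine they were 2, 0 without the filter, 1 with median-ratio rescaling, 1 with the replicate block, 0 with the compared groups alone and 0 to 1 leaving out 1 library. For siCHD4 + siDNMT1 they were 1, 5 under quantile normalization and 0 to 1 leaving out 1 library. For siCHD4 + decitabine they were 2, 1 without the filter, with median-ratio rescaling, the replicate block or the compared groups alone, 6 under quantile normalization and 1 to 2 leaving out 1 library. Between decitabine and siCHD4 alone they were 0, and 0 to 1 leaving out 1 library. Without the filter on low values HOXD1, not tested otherwise, was called lower with siCHD4 alone (-0.29, adjusted p = 0.0373) and higher with siCHD4 in the siDNMT1 background (0.29, adjusted p = 0.0117).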
